A study of Mus musculus with 12 samples.

Results

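The type I interferon-stimulated genes are a module of antiviral genes whose transcription rises when cells sense interferon. Here 43 of them, chosen by gene symbol as known members of the pathway and with earlier results of these data in view, were followed through the livers of 12 male mice in 4 groups of 3. Of the 43 members, 40 had at least 1 probe set that the array's gene table gives to that symbol alone, among 18193 such genes on the array. After a filter on low signal, 36 members were tested among 13598 genes. Oas3, Mx1, Slfn1 and Slfn3 fell below the filter, Isg15 had only a probe set shared with another gene, and Oas1g and Ifi44 were not analysed here. Where a member had several probe sets, the brightest on average stands for it.

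Untreated wild-type mice of the Jcl:ICR strain ate normal diet. Wild-type mice of that strain, Clk/Clk mutants on a Jcl:ICR background and PPARalpha-null mice (129S4SvJae-PPARalphatm1Gonz/J crossed with Jcl:ICR) were fed bezafibrate, mixed into that diet at 0.5% w/w, over 5 days. Bezafibrate is a fibrate, a lipid-lowering drug that activates PPARalpha, the nuclear receptor that drives fatty acid oxidation genes in liver. The Clk allele encodes a CLOCK protein that lacks an exon and acts as a dominant negative on the circadian clock. All mice were 6 to 12 weeks old, were kept under 12 h of light and 12 h of darkness, and gave liver at ZT14, that is 14 h after lights on. The array experiment asked which genes that PPARalpha controls also depend on CLOCK. Neither mutant line was studied without the drug, so for each gene below a change of basal level by the genotype and a change of the response to bezafibrate cannot be told apart. The null mice also carry part of another strain's genome.

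Type I interferons bind a receptor of the Ifnar1 and Ifnar2 chains. The kinases Jak1 and Tyk2 then activate STAT proteins, and a complex that includes Stat2 and Irf9 enters the nucleus and binds interferon-stimulated response elements in promoters. The induced genes detect foreign nucleic acid, degrade or block viral RNA, conjugate the ubiquitin-like protein ISG15 and feed back on the receptor. In liver both hepatocytes and Kupffer cells, the resident macrophages, respond to interferon.

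The sequence to which this complex binds was looked for in the RefSeq promoters (GRCm38.p6), each running from 250 bases before to 50 bases after a gene's start. Its core, the letters GAAA repeated after a gap of any 2 bases and read on either strand with overlapping matches counted, was present in 16 of the 33 members with a promoter entry, or 48.5%, beside 1079 of 27025 genes, or 3.99%. Of the members that rose with bezafibrate, 9 of 19 with an entry held it, as did 4 of the other 8 tested members. The E-box CACGTG, which the CLOCK complex binds, was found in 0 of the 33 members and in 8.09% of all genes. The letters AGGTCA repeated after any 1 base, a strict form of the element that PPARalpha binds, was found in 0 of the 33 and in 0.0481% of all genes. A match describes the letters of this window only. The following promoters are shown because their genes carry the results below, with the core or its reverse complement in capitals, 5′ to 3′ on the gene's strand. Ifit1 (chr19:34640639-34640938, plus strand) holds 2 matches, whose first bases lie 104 and 85 bases before the start. Bst2 (chr8:71537423-71537722, minus strand) holds 2 overlapping matches, 130 and 124 bases before the start. Cxcl10 (chr5:92348840-92349139, minus strand) has its match 213 bases before the start, and Rsad2 (chr12:26456403-26456702, minus strand) 120 bases before it. Cmpk2 (chr12:26468965-26469264, plus strand), the protein-coding neighbour of Rsad2, and Lgals3bp (chr11:118401910-118402209, minus strand) hold no match in this window.
Ifit1: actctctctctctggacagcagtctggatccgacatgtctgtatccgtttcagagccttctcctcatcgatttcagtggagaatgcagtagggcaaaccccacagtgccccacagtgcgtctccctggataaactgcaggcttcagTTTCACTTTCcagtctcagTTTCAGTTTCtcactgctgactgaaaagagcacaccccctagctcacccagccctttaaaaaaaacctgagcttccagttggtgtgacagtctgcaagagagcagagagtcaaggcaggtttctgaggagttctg
Bst2: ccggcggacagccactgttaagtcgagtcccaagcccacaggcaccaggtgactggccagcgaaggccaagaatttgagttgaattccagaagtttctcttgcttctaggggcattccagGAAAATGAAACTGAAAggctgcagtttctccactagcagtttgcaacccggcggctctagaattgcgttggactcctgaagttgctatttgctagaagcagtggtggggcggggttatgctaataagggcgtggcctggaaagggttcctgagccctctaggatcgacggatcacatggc
Cxcl10: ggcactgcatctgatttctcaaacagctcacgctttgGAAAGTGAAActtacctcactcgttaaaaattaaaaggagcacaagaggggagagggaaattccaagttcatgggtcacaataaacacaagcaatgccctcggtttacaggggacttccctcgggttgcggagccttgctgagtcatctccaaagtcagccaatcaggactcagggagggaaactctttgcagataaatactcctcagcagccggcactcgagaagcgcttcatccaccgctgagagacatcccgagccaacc
Rsad2: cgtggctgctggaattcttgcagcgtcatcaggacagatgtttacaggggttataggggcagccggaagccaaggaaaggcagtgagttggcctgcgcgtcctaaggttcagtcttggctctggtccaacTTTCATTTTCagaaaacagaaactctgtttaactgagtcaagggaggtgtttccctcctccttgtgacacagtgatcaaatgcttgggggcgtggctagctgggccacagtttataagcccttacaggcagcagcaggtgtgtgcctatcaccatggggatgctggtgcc
Cmpk2: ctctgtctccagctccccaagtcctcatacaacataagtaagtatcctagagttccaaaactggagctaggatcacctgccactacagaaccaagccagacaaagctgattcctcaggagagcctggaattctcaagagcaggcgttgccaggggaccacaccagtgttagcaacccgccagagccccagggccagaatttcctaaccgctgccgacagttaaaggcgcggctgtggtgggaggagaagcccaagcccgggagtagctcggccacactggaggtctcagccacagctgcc
Lgals3bp: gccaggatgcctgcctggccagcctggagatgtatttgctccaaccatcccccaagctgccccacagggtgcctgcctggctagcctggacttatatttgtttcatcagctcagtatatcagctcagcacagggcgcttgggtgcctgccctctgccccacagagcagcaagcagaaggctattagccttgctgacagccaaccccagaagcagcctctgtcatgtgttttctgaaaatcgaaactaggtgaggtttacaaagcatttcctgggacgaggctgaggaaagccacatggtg

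Values are log2 expression per probe set, so a difference of 1 is a doubling; a level can be compared between mice for 1 gene, not between genes. Array medians differed by little (5.449 to 5.499), which follows from RMA, the processing that gives all arrays 1 distribution of probe intensities. Arrays correlated over all probe sets at 0.9934 or more within a group and 0.9902 or less between groups. Ppara read 11.40, 11.85 and 11.43 in untreated and 10.81, 11.00 and 10.53 in treated wild type, and 10.04, 9.88 and 9.73 in the null mice, lower than treated wild type by 0.90 (adjusted p = 5.74e-04) without reaching background. Clock read 9.37, 9.32 and 9.07 in Clk/Clk mice and 7.99, 8.02 and 8.49 in treated wild type. Whether either probe set covers the mutated part of its gene was not tested. All 10 hepatocyte markers with a probe set passed the filter. A gene was called when its adjusted p in limma, a linear model over all genes, was below 0.05 and its difference at least 1.5-fold, and error terms below are the SE of that difference or the SD over 3 mice.

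Most of the module was higher in wild-type mice fed bezafibrate and near the untreated level in both treated mutants. With bezafibrate 23 of the 36 tested members rose and 0 fell, beside 12.8% and 7.77% of all genes tested. Against treated wild type, 22 members were lower in the PPARalpha-null mice and 0 higher (8.09% and 5.35% of all genes), and 22 were lower in Clk/Clk mice and 0 higher (6.49% and 2.64%). Each of these counts includes Slfn4, which reached the filter level in treated wild type alone; without it they were 22, 21 and 21 of 35. The median difference of the members was 1.17 on the log2 scale with bezafibrate, -1.05 in the null and -1.06 in the Clk/Clk comparison, while the medians of all genes tested were 0.007, 0.010 and 0.020. Leaving out Slfn4, the medians of the members were 1.16, -1.04 and -0.99. Without the filter, over 40 members, 24 rose (9.89% of all genes), 20 were lower in null (6.22%) and 22 lower in Clk/Clk mice (5.0%), and the medians were 1.11, -0.98 and -0.95. All 3 comparisons use the treated wild-type arrays, so a low or high mouse there moves all of them, and the values are given side by side. Of the 23 members that rose, Slfn4 included, 21 were lower in null and 18 in Clk/Clk mice. Of all 1742 genes that rose, 51.7% and 26.9% were. Where 0 members were called in a direction, limma's unadjusted p was below 0.05 for 1 member lower with bezafibrate, 1 higher in null and 0 higher in Clk/Clk mice.

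**Figure D1:**
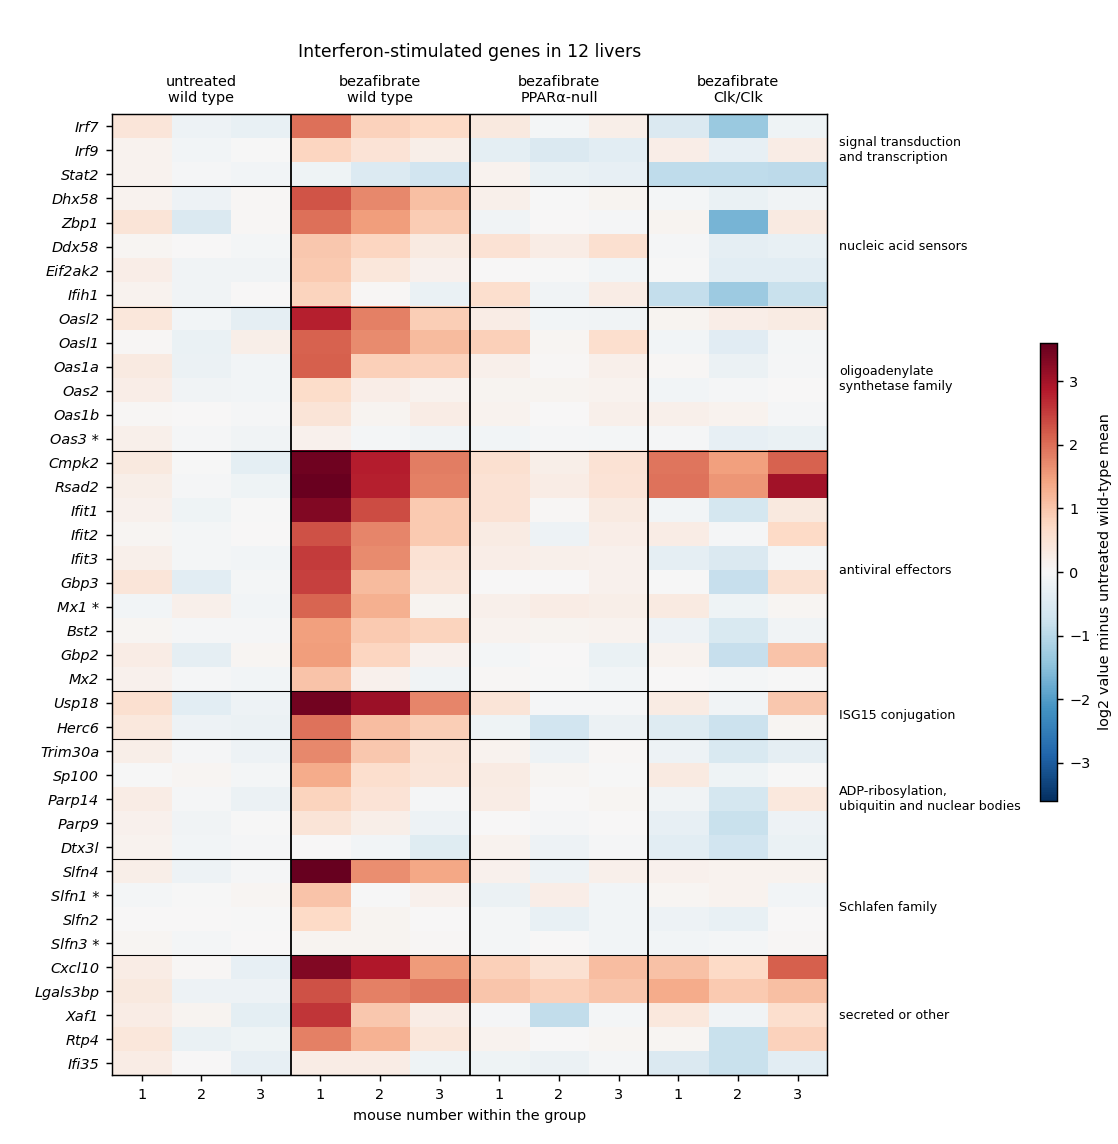
Colour shows the log2 value of each of 40 members in each of 12 livers minus the mean of untreated wild type for that gene; rows are grouped by role, columns are mice 1 to 3 of each group, and values past the ends of the scale take the end colour. Asterisks mark the 4 members below the filter. Red fills the treated wild-type columns, deepest in mouse 1, and in Clk/Clk mice stays in Cmpk2, Rsad2, Lgals3bp and Cxcl10.

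Among the members of signal transduction and transcription, Irf7, the transcription factor that amplifies interferon production, rose by 1.18 ± 0.359 (SE, 2.26-fold, adjusted p = 0.0179). Its values were 8.03, 7.41 and 7.34 in untreated mice 1, 2 and 3, and 9.59, 8.41 and 8.30 in treated wild type. They were 7.95, 7.51 and 7.80 in treated null mice and 7.06, 6.25 and 7.45 in treated Clk/Clk mice. The treated wild-type mice lay above every other mouse, with no overlap, and Clk/Clk mouse 2 was the lowest of the 12. Irf7 was lower than in treated wild type by 1.01 in null (adjusted p = 0.0467) and by 1.85 in Clk/Clk mice (adjusted p = 0.00383). Neither its rise nor its null difference was called in every fit that left out 1 mouse. The null difference was also not called without the filter, after renormalization, with array weights, or in the robust and 2-group fits. Irf9, the DNA-binding subunit of the interferon-activated complex, averaged 7.99 ± 0.106 (SD, n = 3) in untreated and 8.49 ± 0.276 in treated wild type, 1.41-fold apart and under the fold limit. It was lower in null mice, at 7.57 ± 0.0889 (difference -0.91, adjusted p = 0.00113), and read 8.05 ± 0.317 in Clk/Clk mice (difference -0.43, adjusted p = 0.0707). Stat2, the STAT protein of the complex, read 7.23 ± 0.107 in untreated and 6.78 ± 0.269 in treated wild type, 1.36-fold lower and not called. It read 7.10 ± 0.23 in null and 6.31 ± 0.022 in Clk/Clk mice, and its differences from treated wild type, 0.32 (adjusted p = 0.094) and -0.48 (adjusted p = 0.0269), were under the fold limit. The Clk/Clk mice lay below untreated wild type by 0.92 (adjusted p = 2.07e-04) and below the null mice by 0.79 (adjusted p = 8.46e-04).

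The 5 nucleic acid sensors split on the probe sets that stand for them. Dhx58 (LGP2), which regulates the RNA helicases that detect viral RNA, rose by 1.69 ± 0.223 (3.24-fold, adjusted p = 8.33e-05), from 6.15, 5.83 and 6.05 in untreated to 8.28, 7.75 and 7.08 in treated wild type. It read 6.18, 6.00 and 6.11 in null and 5.93, 5.78 and 5.89 in Clk/Clk mice. The treated wild-type mice stood apart from the 9 other mice, which covered a narrow range. Zbp1, a sensor of Z-form nucleic acid, rose by 1.47 ± 0.456 (adjusted p = 0.0195), with 7.53, 6.54 and 7.10 in untreated and 9.05, 8.56 and 7.96 in treated wild type. Its null values were 6.93, 7.08 and 7.01 and its Clk/Clk values 7.16, 5.38 and 7.37, so that Clk/Clk mouse 2 alone fell well under the untreated mice. Zbp1 was lower by 1.52 in null (adjusted p = 0.0234) and by 1.89 in Clk/Clk mice (adjusted p = 0.0117). Ddx58 (RIG-I), a detector of viral RNA ends, rose by 0.69 ± 0.148 (adjusted p = 0.00233). It was 8.10 ± 0.166 in null mice, against 8.35 ± 0.33 in treated wild type (difference -0.25, adjusted p = 0.223), and 7.44 ± 0.151 in Clk/Clk mice (difference -0.91, adjusted p = 0.00147). A dimmer Ddx58 probe set that passed the filter read 6.07, 6.03 and 5.87 in untreated and 6.99, 6.75 and 6.60 in treated wild type. There the null mice, at 6.15, 6.03 and 6.03, did not overlap with treated wild type. The Clk/Clk values of that probe set were 5.99, 5.93 and 5.96. Ifih1 (MDA5), the detector of long double-stranded RNA, read 9.20 ± 0.129, 9.41 ± 0.527 and 9.45 ± 0.356 in untreated wild type, treated wild type and null. In Clk/Clk mice it read 8.22 ± 0.285, below treated wild type by 1.19 (adjusted p = 0.00556), below untreated by 0.99 (adjusted p = 0.00675) and below null by 1.24 (adjusted p = 0.00227). Eif2ak2 (PKR), the kinase that halts translation, was 7.85 ± 0.214 in untreated and 8.35 ± 0.405 in treated wild type, 1.41-fold and not called, and was lower in Clk/Clk mice by 0.76 (adjusted p = 0.0114). Its null difference, -0.53 without overlap (adjusted p = 0.0412), was under the fold limit. Its dimmer probe sets were higher in every treated than in every untreated wild-type mouse, and there Clk/Clk mice overlapped with treated wild type. With the mean of its probe sets Eif2ak2 was called higher with bezafibrate and not called in Clk/Clk mice. On the brightest probe sets all 5 sensors were thus called lower in Clk/Clk mice, and 2 of 5, Dhx58 and Zbp1, in null mice.

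Of the 5 tested genes of the oligoadenylate synthetase family, whose products activate RNase L or resemble the enzymes that do, Oas1a, Oasl1 and Oasl2 rose and were lower in both mutants. Oasl1 read 6.54, 6.28 and 6.71 in untreated and 8.63, 8.22 and 7.64 in treated wild type, a difference of 1.66 ± 0.245 (3.15-fold, adjusted p = 1.95e-04). In null mice it read 7.36, 6.58 and 7.12, and in Clk/Clk mice 6.41, 6.11 and 6.44. Null values partly exceeded the untreated ones, Clk/Clk values did not exceed the null ones, and Oasl1 was lower in Clk/Clk than in null mice by 0.70 (adjusted p = 0.043). Oasl2 read 5.54, 5.05 and 4.82 in untreated, 7.94, 6.94 and 6.03 in treated wild type, 5.40, 5.03 and 5.01 in null and 5.24, 5.37 and 5.43 in Clk/Clk mice. Its differences were 1.84 ± 0.365 with bezafibrate (adjusted p = 0.0015), -1.82 in null (adjusted p = 0.0027) and -1.62 in Clk/Clk mice (adjusted p = 0.00835), on a probe set below the filter level in untreated mouse 3. Oas1a rose by 1.28 (adjusted p = 0.00326). Oas1b and Oas2 were 0.27 and 0.34 higher with bezafibrate, under the fold limit, and were called in none of the 3 comparisons.

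Of the 9 tested antiviral effectors, 7 rose with bezafibrate. Ifit1, which binds viral RNA caps, read 6.56, 6.25 and 6.38 in untreated and 9.73, 8.75 and 7.34 in treated wild type, a difference of 2.21 ± 0.461 (4.63-fold, adjusted p = 0.00205). It read 6.91, 6.43 and 6.71 in null mice and 6.31, 5.75 and 6.76 in Clk/Clk mice, lower by 1.92 (adjusted p = 0.00774) and by 2.33 (adjusted p = 0.00424). Treated wild-type mouse 1 was far above mouse 3, and mouse 3 was still above all mice of the other groups. Its partner Ifit3 read 7.14, 6.90 and 6.87 in untreated, 9.49, 8.67 and 7.49 in treated wild type, 7.21, 7.14 and 7.13 in null and 6.66, 6.45 and 6.91 in Clk/Clk mice. Ifit3 rose by 1.58 (adjusted p = 0.00363) and was lower by 1.39 in null (adjusted p = 0.0118) and by 1.88 in Clk/Clk mice (adjusted p = 0.00369). Ifit2 read 6.45, 6.30 and 6.39 in untreated, 8.67, 8.13 and 7.32 in treated wild type, 6.67, 6.19 and 6.63 in null and 6.65, 6.34 and 7.09 in Clk/Clk mice. Its differences were 1.66 with bezafibrate (adjusted p = 5.94e-04), -1.55 in null (adjusted p = 0.00172) and -1.35 in Clk/Clk mice (adjusted p = 0.0064). Bst2 (tetherin), which holds budding virus at the cell surface, averaged 10.66 ± 0.0658 in untreated, 11.73 ± 0.353 in treated wild type, 10.78 ± 0.0127 in null and 10.37 ± 0.231 in Clk/Clk mice. Its rise of 1.07 (adjusted p = 1.70e-04) and its differences of -0.95 (adjusted p = 6.89e-04) and -1.36 (adjusted p = 2.10e-04) were called in each comparison. Gbp3, a guanylate-binding GTPase, rose by 1.35 (adjusted p = 0.0277) although its treated and untreated mice overlapped, whereas Gbp2 (0.81, adjusted p = 0.127) and Mx2 (0.35, adjusted p = 0.209) were not called. Mx1, a GTPase that traps viral nucleoproteins and lies below the filter, averaged 4.03 ± 0.164 in untreated and 5.18 ± 1.0 in treated wild type.

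Rsad2 and Cmpk2 kept a high level in Clk/Clk mice. Rsad2 (viperin) makes a nucleotide analogue that ends viral RNA chains, Cmpk2 is a nucleotide kinase, and both are neighbours on chromosome 12. Rsad2 read 7.56, 7.30 and 7.18 in untreated, 10.90, 10.14 and 9.15 in treated wild type, 7.87, 7.61 and 7.83 in null and 9.30, 8.93 and 10.38 in Clk/Clk mice. Cmpk2 read 6.48, 6.14 and 5.80 in untreated, 9.64, 8.98 and 7.98 in treated wild type, 6.72, 6.34 and 6.66 in null and 8.06, 7.62 and 8.27 in Clk/Clk mice. On these probe sets the Clk/Clk mice overlapped with treated wild type and lay above every untreated and every null mouse. Rsad2 rose by 2.71 ± 0.407 with bezafibrate (6.57-fold, adjusted p = 2.16e-04) and Cmpk2 by 2.72 ± 0.341 (6.6-fold, adjusted p = 5.73e-05), and each was lower in null mice by 2.29 (adjusted p = 0.00123 and 3.66e-04). Against treated wild type the Clk/Clk difference was -0.53 ± 0.407 for Rsad2 (adjusted p = 0.373) and -0.88 ± 0.341 for Cmpk2 (adjusted p = 0.0811). Treated Clk/Clk mice exceeded untreated wild type by 2.19 for Rsad2 (adjusted p = 9.89e-04) and by 1.84 for Cmpk2 (adjusted p = 9.56e-04). They exceeded the null mice by 1.77 (adjusted p = 0.00524) and by 1.41 (adjusted p = 0.00685), the only members called higher in Clk/Clk than in null mice (7.43% of all genes were). Irf9 was 0.48 higher there with no overlap (adjusted p = 0.0337), under the fold limit. The other 2 probe sets of Rsad2 had the same order of group means. The dimmer probe set of Cmpk2 read 5.05, 5.04 and 5.46 in untreated, 6.03, 5.93 and 5.41 in treated wild type, 5.00, 5.33 and 5.17 in null and 5.71, 5.35 and 5.45 in Clk/Clk mice, where the Clk/Clk mice overlapped with the untreated ones. Without treated wild-type mouse 3, Cmpk2 was also called lower in Clk/Clk mice.

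**Figure D2:**
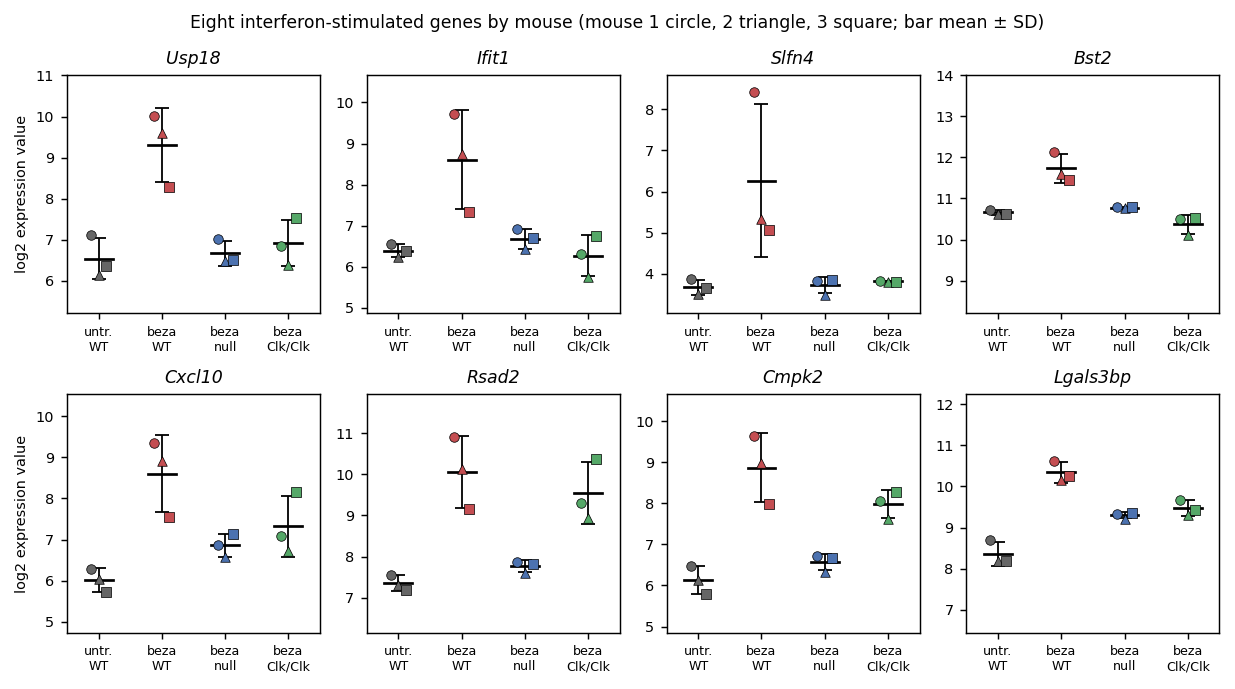
Log2 expression values of 8 members in each mouse; groups are on the horizontal axis (untr., untreated; beza, bezafibrate; WT, wild type), symbols mark mice 1, 2 and 3, and bars give the mean ± SD of 3 mice. Each vertical axis has its own range and does not start at 0. In the upper row both mutants lie near untreated wild type; in the lower row Rsad2 and Cmpk2 stay high in Clk/Clk mice, and Lgals3bp lies between the untreated and treated wild-type levels in both mutants.

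Both tested genes of ISG15 conjugation rose. Usp18, the protease that removes ISG15 and blocks the interferon receptor, had the largest rise of the 36 members, 2.76 ± 0.42 (6.79-fold, adjusted p = 2.36e-04). It read 7.11, 6.15 and 6.36 in untreated, 10.02, 9.61 and 8.29 in treated wild type, 7.01, 6.49 and 6.51 in null and 6.84, 6.40 and 7.52 in Clk/Clk mice. All treated wild-type mice stood above the other 9, and Clk/Clk mouse 3 was the nearest to them. Usp18 was lower by 2.64 in null (adjusted p = 5.84e-04) and had a Clk/Clk difference of -2.39 (adjusted p = 0.00219). Herc6, the ligase that attaches ISG15 in mice, read 7.70, 7.15 and 7.11 in untreated, 9.27, 8.43 and 8.21 in treated wild type, 7.16, 6.64 and 7.10 in null and 6.85, 6.54 and 7.40 in Clk/Clk mice. Its differences were 1.32, -1.67 and -1.70 (adjusted p = 0.00289, 0.00106 and 0.00187), and on this probe set both mutants overlapped with the untreated mice. A dimmer Herc6 probe set that passed the filter read 5.61, 5.11 and 5.25 in untreated mice. There the null mice (4.74, 4.60 and 4.68) and the Clk/Clk mice (4.93, 4.84 and 5.03) lay below the untreated ones.

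Among the genes of ADP-ribosylation, ubiquitin transfer and nuclear bodies, Trim30a, a ubiquitin ligase that restrains inflammatory signalling, rose by 1.06 (adjusted p = 0.00447), and Sp100, a nuclear body protein, by 0.80 (adjusted p = 0.00718). Both were called lower in null and in Clk/Clk mice. The second probe set of Sp100 averaged 5.84 in untreated and 5.92 in treated wild type, and with the mean of its probe sets Sp100 was called neither with bezafibrate nor in null mice. Parp14, Parp9 and Dtx3l, which lie next to each other in the genome, differed by 0.42, 0.16 and -0.18 with bezafibrate and were not called there. Parp9, an ADP-ribosyltransferase that works with the ligase Dtx3l, was called lower in Clk/Clk mice by 0.59 (adjusted p = 0.0302), at the fold limit and with overlapping mice. Of the Schlafen genes, which act in immune cell growth, Slfn4 read 3.87, 3.50 and 3.64 in untreated and 8.41, 5.33 and 5.06 in treated wild type. In null mice it read 3.83, 3.49 and 3.85 and in Clk/Clk mice 3.83, 3.80 and 3.81. It passed the filter only through the treated wild-type mice, where mouse 1 was far above the others, and a member that enters through the group where it is high has to differ, so its test is not given. The fitted differences, 2.60, -2.55 and -2.45, or 1.52, -1.47 and -1.38 without treated wild-type mouse 1, rest on signal below the filter level elsewhere. Slfn2 differed by 0.27 with bezafibrate (adjusted p = 0.171).

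Of the secreted and other members, Cxcl10, the chemokine that draws activated T cells, read 6.28, 6.05 and 5.72 in untreated, 9.36, 8.91 and 7.55 in treated wild type, 6.87, 6.57 and 7.14 in null and 7.08, 6.73 and 8.16 in Clk/Clk mice. Both mutant groups lay above all untreated mice, and Clk/Clk mouse 3 exceeded treated wild-type mouse 3. Cxcl10 rose by 2.59 ± 0.436 (6.02-fold, adjusted p = 4.85e-04) and was lower in null by 1.75 (adjusted p = 0.00949). Its Clk/Clk difference was -1.29 (adjusted p = 0.0514), and Clk/Clk mice exceeded untreated wild type by 1.30 (adjusted p = 0.0296). Lgals3bp, a secreted galectin-binding glycoprotein, read 8.69, 8.18 and 8.18 in untreated, 10.63, 10.15 and 10.26 in treated wild type, 9.34, 9.22 and 9.36 in null and 9.68, 9.30 and 9.42 in Clk/Clk mice. The 3 treated groups did not overlap with the untreated one, and the mutants did not overlap with treated wild type. Its rise of 2.0 ± 0.16 (4-fold) had the smallest adjusted p of the module, 1.90e-06. It was lower by 1.04 in null (adjusted p = 4.47e-04) and by 0.88 in Clk/Clk mice (adjusted p = 0.0026), and both mutants exceeded untreated wild type, null by 0.96 (adjusted p = 0.00197) and Clk/Clk by 1.12 (adjusted p = 1.51e-04). Xaf1, a pro-apoptotic factor, read 6.53, 6.38 and 5.92 in untreated, 8.85, 7.26 and 6.54 in treated wild type, 6.23, 5.40 and 6.21 in null and 6.67, 6.14 and 6.89 in Clk/Clk mice. Its rise of 1.28 (adjusted p = 0.0421) was carried by mouse 1, without which it was 0.63 and not called, and a second Xaf1 probe set had overlapping untreated and treated mice. Rtp4, a receptor transporter protein, rose by 1.16 (adjusted p = 0.0294), and Ifi35, an interferon-induced leucine zipper protein, was 0.13 higher with bezafibrate (adjusted p = 0.509) and lower in Clk/Clk mice by 0.70 (adjusted p = 0.0088).

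**Figure D3:**
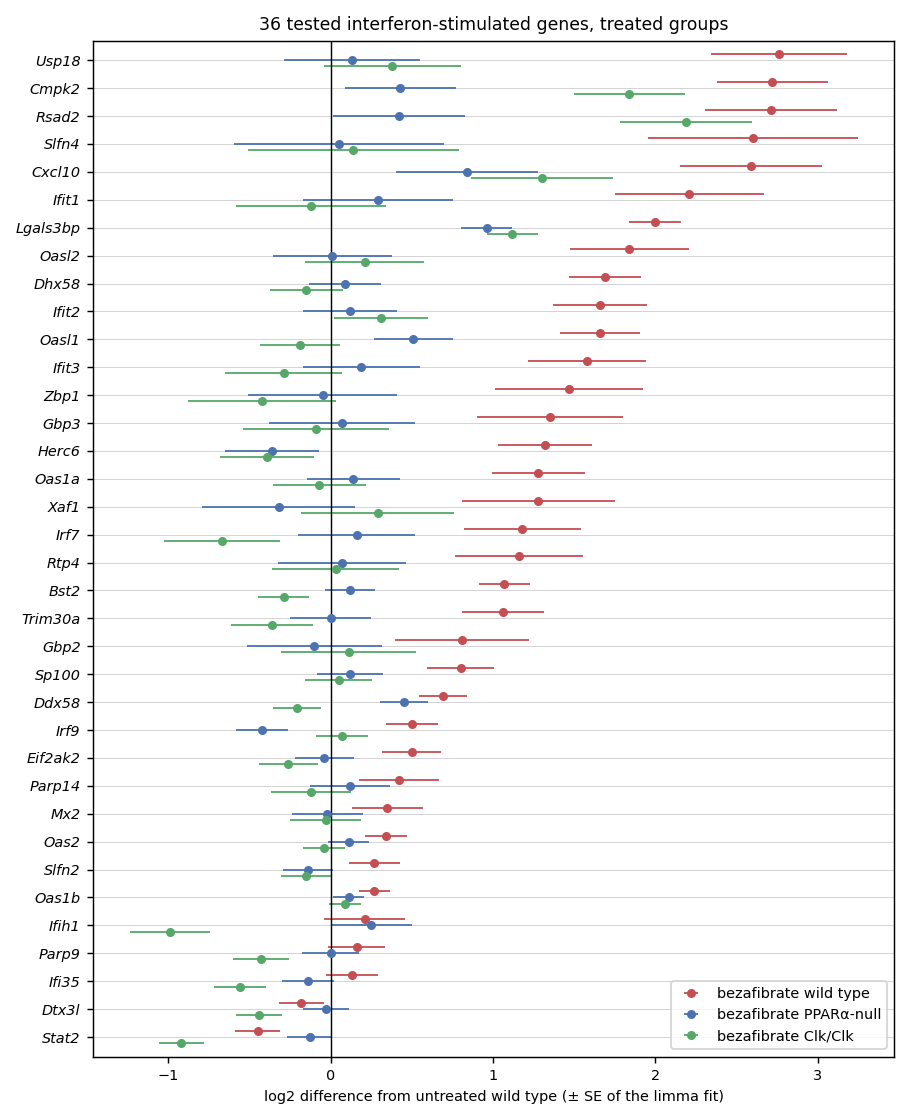
Points give the limma difference on the log2 scale of each treated group from untreated wild type for the 36 tested members, with bars of ± SE, ordered by the bezafibrate difference in wild type. Slfn4 is included, although it passed the filter only through treated wild type. Wild type lies to the right of 0 for all members except Dtx3l and Stat2; the null mice lie furthest to the right for Lgals3bp, and the Clk/Clk mice furthest to the right for Rsad2, Cmpk2, Cxcl10 and Lgals3bp and furthest to the left for Ifih1 and Stat2.

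Set against untreated wild type, treated null mice had 1 member higher, Lgals3bp, and 0 lower, beside 3.96% and 2.69% of all genes, and the median of the members was 0.10. Treated Clk/Clk mice had 4 members higher, Rsad2, Cmpk2, Cxcl10 and Lgals3bp, and 2 lower, Stat2 and Ifih1, beside 10.6% and 8.82% of all genes, with a median of -0.11. Directly against null mice, 2 members were higher in Clk/Clk mice and 4 were lower, Ifih1, Stat2, Oasl1 and Ddx58, beside 7.43% and 7.78% of all genes.

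The treated wild-type mice differed widely in the module. The mean over 40 members, each relative to its untreated mean, was 1.71 in mouse 1, 1.03 in mouse 2 and 0.54 in mouse 3. The untreated mice had 0.20, -0.10 and -0.10, the null mice 0.20, -0.02 and 0.12, and the Clk/Clk mice 0.09, -0.29 and 0.26. The least induced treated wild-type mouse was therefore above all 9 other mice, and the most induced was more than 1 log2 unit above it. Mouse 1 was the highest of the 3 in 39 of 40 members, beside 33.7% of all genes, and mouse 3 the lowest in 37 of 40, beside 32.2%. Single mice also led elsewhere: untreated mouse 1 was highest in 36 of 40 members (34.0% of all genes) and Clk/Clk mouse 2 lowest in 33 of 40 (33.9%). Null mouse 1 was highest in 25 of 40 (31.4%). The median SD of a member over 3 mice was 0.554 in treated wild type, 0.192 in untreated, 0.131 in null and 0.231 in Clk/Clk mice, whereas the median over all genes was between 0.101 and 0.109.

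Without treated wild-type mouse 1, 16 members, Slfn4 included, rose with bezafibrate and the median fell to 0.78. The 7 that were lost were Irf7, Zbp1, Ddx58, Gbp3, Sp100, Xaf1 and Rtp4, and Stat2 was then called lower. Without mouse 3, 27 rose, with Irf9, Eif2ak2, Gbp2 and Mx2 added. Slfn4 left aside, 15 of the 22 members were called every time across the 6 fits that each left out 1 mouse: Usp18, Rsad2, Cmpk2, Cxcl10, Ifit1, Ifit2, Ifit3, Oas1a, Oasl1, Oasl2, Dhx58, Herc6, Trim30a, Bst2 and Lgals3bp. Likewise without Slfn4, 16 of the 21 lower members of the null comparison were called every time, and the counts ran from 16 to 25. The other 5 were Irf7, Zbp1, Gbp3, Sp100 and Xaf1, of which Irf7 and Gbp3 were also not called without the filter. In the Clk/Clk comparison 16 of 21 were called every time, with counts from 17 to 28, the highest without treated wild-type mouse 3. The 5 not called every time were Eif2ak2, Gbp3, Sp100, Parp9 and Ifi35, and Cmpk2, Cxcl10, Xaf1, Rtp4, Stat2, Mx2 and Parp14 were added without mouse 3. Oas1a was called throughout, although without mouse 1 its rise was 0.84 in place of 1.28 and its null difference -0.70 in place of -1.14. The null difference of Ifit3 without that mouse was -0.92 and remained called.

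**Figure D4:**
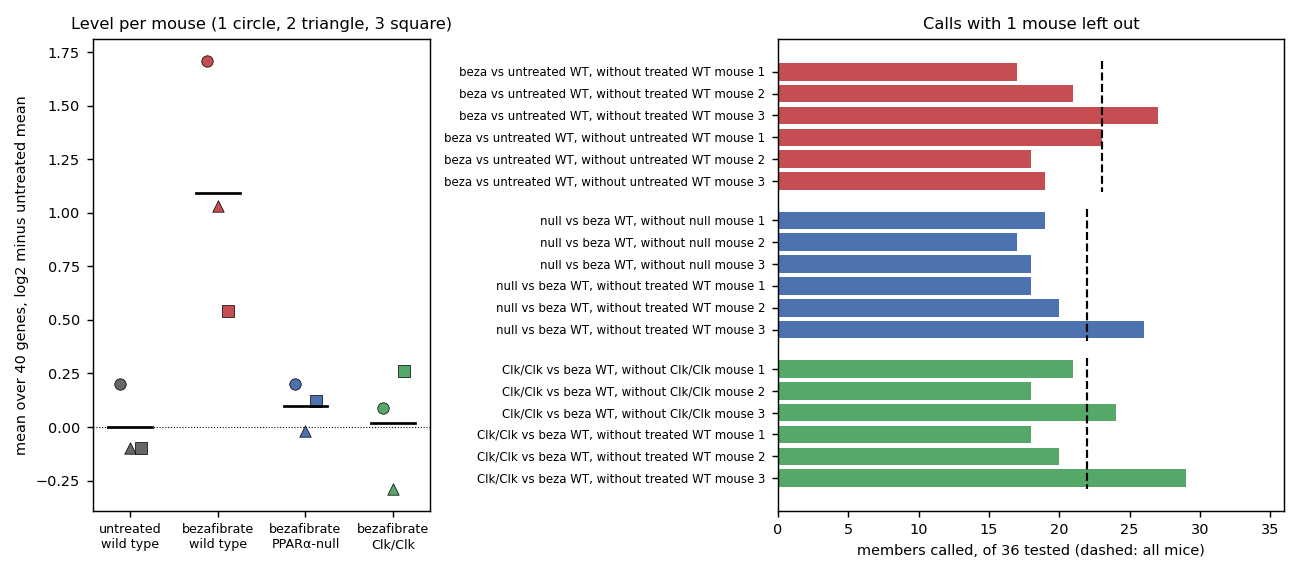
The left panel gives, for each mouse, the mean over 40 members of the log2 value minus the untreated mean, with a line at the group mean. The right panel gives the number of the 36 tested members called in either direction when 1 mouse is left out (dashed lines, all mice). Treated wild-type mice spread from 0.54 to 1.71, and counts are lower without mouse 1 and higher without mouse 3 of that group.

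Beside the counts in the lists that follow stand the shares of all genes given above, 12.8% called higher and 7.77% called lower with bezafibrate, 5.35% and 8.09% in null and 2.64% and 6.49% in Clk/Clk mice. Of 18 interferon ligands listed, 9 had a probe set and 3 passed the filter. With bezafibrate 0 were called by limma, although 2 were lower at an unadjusted p below 0.05. Ifna2, an interferon alpha gene, read 6.25, 5.56 and 5.84 in untreated, 5.17, 5.37 and 5.44 in treated wild type, 6.00, 5.87 and 5.98 in null and 5.56, 5.15 and 5.14 in Clk/Clk mice. It was lower in every treated than in every untreated wild-type mouse (-0.56, adjusted p = 0.0135, under the fold limit) and was called higher in null than in treated wild type (0.62, adjusted p = 0.0115). In Clk/Clk mice it was called lower than in untreated (-0.60, adjusted p = 0.00999) and null mice (-0.66, adjusted p = 0.00719). Ifnb1, the gene of interferon beta, lay near the filter level at 4.96 ± 0.135 in untreated and 4.83 ± 0.104 in treated wild type. Of 11 tested genes of the receptors, JAK-STAT signalling and its feedback, 2 rose with bezafibrate, Ifngr2, a chain of the interferon gamma receptor (0.91, adjusted p = 1.22e-04), and the phosphatase Ptpn6 (0.62, adjusted p = 0.0071). The feedback inhibitor Socs3 fell by 1.11 (adjusted p = 0.0165). Socs3 was also called lower than in untreated wild type in treated null (-1.99) and treated Clk/Clk mice (-1.43). The type I receptor chains and kinases were not called, with differences of 0.14 for Ifnar1, -0.06 for Ifnar2, -0.28 for Jak1 and -0.01 for Tyk2, and Socs1 was below the filter. Among 6 interferon regulatory factors outside the module, Irf2, which can repress interferon-stimulated promoters, fell by 1.89 (adjusted p = 2.34e-07). Irf2 was also called lower than in untreated wild type in treated null (-1.37) and treated Clk/Clk mice (-1.81). Against treated wild type, 0 of the 6 factors were called in either mutant, and in each 2 were higher at an unadjusted p below 0.05. Irf1 and Irf3, activators of interferon genes, differed by -0.05 and by -0.44 (adjusted p = 0.892 and 0.0042), both under the fold limit.

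Of 10 tested sensors and adaptors that lie upstream of interferon, Tlr3, the receptor for double-stranded RNA in endosomes, rose by 1.25 (adjusted p = 3.91e-05) and was lower by 1.02 in null (adjusted p = 3.23e-04) and by 0.78 in Clk/Clk mice (adjusted p = 0.00341). The adaptor Myd88 rose by 0.74 (adjusted p = 1.15e-05) and was called in neither mutant. Of 13 tested genes of class I antigen presentation, 2 rose, the class I gene H2-Q10 (0.61) and the proteasome activator subunit Psme1 (0.92), while 1 was lower in null and 3 in Clk/Clk mice. Of 12 tested genes of interferon gamma response and class II presentation, 0 were called with bezafibrate (0 at an unadjusted p below 0.05) and 4 were higher in null mice: Cd74 by 0.86, H2-Aa by 1.33, H2-Ab1 by 0.88 and H2-Eb1 by 1.53. Of 12 tested NF-kB inflammatory genes, the chemokine Ccl2 rose by 1.63 (adjusted p = 0.0253), with 8.94 in treated wild-type mouse 1 and 6.27 and 6.46 in the other 2. These lists, like the module, are described by counts and were given no test of their own.

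In whole liver, more cells of a type and more RNA per cell cannot be told apart. Of 13 tested Kupffer cell and macrophage markers, 2 rose with bezafibrate (12.8% of all genes did), Cd14 by 2.53 (adjusted p = 4.32e-06) and Cd68 by 0.90 (adjusted p = 0.00215). In null mice 4 were lower (Cd14, Cd68, Marco and Lyz2), and in Clk/Clk mice 4 were lower (Clec4f, Cd5l, Cd68 and Cd14), beside the 8.09% and 6.49% of all genes. All 13 differences of the Clk/Clk mice from treated wild type lay below 0, with a median of -0.53, and 11 had an unadjusted p below 0.05. Against untreated wild type and against null mice, 10 of 13 lay below 0, and Clec4f was called lower in both comparisons. Cd14 was called higher there in Clk/Clk mice, by 1.57 and by 1.30. The summed linear signal of the 14 markers with a probe set was 7147 to 8095 in untreated, 7792 to 11722 in treated wild type, 7740 to 8540 in null and 5208 to 6789 in Clk/Clk mice, and Itgam was below the filter. In treated wild type it was 11722 in mouse 1, 8491 in mouse 2 and 7792 in mouse 3, so that the mouse with the highest module also had the highest sum. Brighter probe sets weigh more in such a sum, and the median difference of the 13 markers with bezafibrate was 0.15. In untreated and null mice, mouse 1 had the highest module mean and the lowest summed macrophage signal of its group, and in Clk/Clk mice, mouse 3 had the highest and mouse 2 the lowest of both. Clec4f, a marker of Kupffer cells, differed by 0.15 with bezafibrate (adjusted p = 0.315).

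Of 8 tested T and NK cell markers and 5 tested dendritic cell markers, 0 were called in the 3 comparisons by limma (with bezafibrate, an unadjusted p below 0.05 was reached by 2 T and NK and 4 dendritic cell markers), and the plasmacytoid cell marker Ccr9 and the dendritic cell marker Xcr1 were below the filter. The summed T and NK signal was 510 to 517 in untreated and 497 to 558 in treated wild type. The summed neutrophil signal, over 8 markers of which 4 were tested, was 269 to 360 in untreated, 788, 384 and 339 in treated wild-type mice 1, 2 and 3, 457 to 998 in null and 363 to 470 in Clk/Clk mice. The tested neutrophil markers did not move together. Against treated wild type, S100a8 was called higher in null mice (1.84) and S100a9 lower (-1.59), and Ngp was called lower with bezafibrate. Hepatocyte markers summed to 190046 to 192815 in untreated, 143897 to 151752 in treated wild type, 178007 to 181616 in null and 161857 to 163912 in Clk/Clk mice, and 4 of 10 fell with bezafibrate. Of 8 sinusoidal endothelium markers, all tested, Stab2 (-0.86, adjusted p = 4.66e-05) and Clec4g (-0.69, adjusted p = 0.0031) fell with bezafibrate, and Stab2 was higher in null mice by 0.83. Their signal summed to 4005 to 4125 in untreated, 2401, 3139 and 3307 in treated wild-type mice 1, 2 and 3, 3216 to 3596 in null and 2783 to 3130 in Clk/Clk mice, lowest in the mouse with the highest module. B and plasma cell markers summed to 405 to 702, 461 to 647, 560 to 580 and 280 to 290 in the same order of groups. Of 6 tested, Jchain was called lower with bezafibrate. Against treated wild type, Blnk was called higher in null mice, and Blnk and Ighm lower in Clk/Clk mice. The part of these cells in the module's differences was not tested.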

How the data were processed

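The authors deposited log2 expression values per probe set of an Affymetrix mouse array, processed with RMA per the submitters' processing notes; its version and settings are not given in the sources used here. RMA gives all arrays 1 distribution of probe intensities before probe sets are summarized, so a shift common to all probe sets would not show. Total RNA (250 ng per liver, per the labels' protocols) was labelled. The array held 45101 probe sets, with 64 controls among them; 34945 had 1 gene symbol in the platform's annotation, 932 several and 9160 none. Symbols were set against RefSeq GRCm38.p6 by gene identifier, which changed 0 of them.

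The filter asked for a value at or above an array's 40th percentile (4.87 to 4.922) on 3 or more arrays. Of the 36 tested members, 34 reached that level on all 12 arrays, and Slfn4 only in treated wild type. The 12 arrays were fitted with limma 3.58.1 in R 4.3.3 (lmFit, eBayes; 4 group means, 8 residual degrees of freedom), with Benjamini-Hochberg adjustment over 13598 genes; 3 mice per group limit the precision. The labels do not say whether mice shared a litter or cage, and give no array batch. Per-mouse values are given for the 10 called members with the largest difference in each comparison; Ppara, Clock and the main genes of interferon signalling are always named, and other list genes by smallest adjusted p. The members and lists were chosen with earlier results of these data known. The fit was also run on simulated data, with independent noise per gene and the same SD in all groups. Members varied together by mouse, with a median SD of 0.554 in treated wild type and 0.131 in null. The simulation therefore does not bear on the calls of the module. Same-numbered mice did not deviate together over all genes tested (18 pairs of arrays, correlations -0.092 to 0.125, 3 over 0.1), so the numbers were taken as names. In the module, however, mouse 1 had the highest mean in untreated (0.20), treated wild-type (1.71) and null mice (0.20). Alternatives covered the filter, the choice of probe set, renormalization, array weights, a robust fit, the replicate block, 2-group fits, other thresholds and leaving out each mouse.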

Additional observations from a re-analysis of the deposited data

Results flagged for a closer look

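The probe set that the platform's table gives to both Isg15, the ubiquitin-like protein of the module, and Gm9706 entered no comparison, because its signal cannot be assigned to 1 gene. It was looked at because it lay outside the tested genes and its treated wild-type mice all exceeded the untreated ones. The difference of treated from untreated wild type was 2.49 on the log2 scale. The values were 6.59, 6.24 and 6.34 in untreated, 9.80, 8.69 and 8.16 in treated wild type, 6.79, 6.40 and 6.89 in null and 6.87, 6.24 and 7.29 in Clk/Clk mice. The treated wild-type mice stood above the 9 others. No test was run on it.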

How the results depend on the processing

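The members risen with bezafibrate numbered 18 to 24, and those lower in null and in Clk/Clk mice 16 to 21 and 17 to 24, under the other filters, probe set choices and fits, and their medians kept their sign. At other thresholds the 3 counts were 27, 23 and 24 by adjusted p alone and 21, 19 and 16 at 2-fold. With the mouse number as a replicate block the 3 counts were 23, 22 and 22, with all genes shared; 1 of 12 arrays correlated best with its own number. Leaving out 1 mouse gave 16 to 27, 17 to 26 and 18 to 29 members, and 0 to 1 called lower with bezafibrate; by adjusted p alone 1 was lower. These counts include Slfn4; leaving it out, an alternative chosen after seeing the data, gave 22, 21 and 21 of 35. Members higher in null than in untreated mice numbered 1, but 2 with only the 2 groups fitted and 0 at 2-fold. Members lower in Clk/Clk than in untreated mice numbered 2, but 4 by adjusted p alone and 0 at 2-fold. Against null mice, 2 were higher in Clk/Clk, or 1 without suffix probe sets, which lack Cmpk2, and 4 were lower, or 1 at 2-fold. Uncalled differences changed sign for Ifih1 and Ifi35. With bezafibrate Ifih1 ranged from -0.09, without treated wild-type mouse 1, to 0.42 (0.21 with all), and Ifi35 from -0.01, without untreated mouse 3, to 0.27 (0.13). In null mice Ifih1 was -0.13 without null mouse 1, -0.04 without treated wild-type mouse 2 and -0.17 without mouse 3, and at most 0.34 (0.04 with all). The cause was not tested. Without treated wild-type mouse 1, Irf7 rose by 0.77, Gbp3 by 0.79 and Sp100 by 0.52, none called. In the null comparison Irf7, Gbp3, Sp100 and Xaf1 were then -0.60, -0.72, -0.40 and -0.95, of which Xaf1 remained called, and in the Clk/Clk comparison Gbp3 and Sp100 were -0.88 and -0.47, not called. Signal near background limits Slfn4, Oasl2 and Mx1.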

Other observations

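Xaf1 had a second probe set that differed from the one described above. This dimmer Xaf1 probe set read 7.47, 4.35 and 6.31 in untreated, 4.53, 8.62 and 7.95 in treated wild type, 7.36, 7.90 and 7.17 in null and 4.63, 4.27 and 5.07 in Clk/Clk mice. The untreated and treated wild-type mice spread over several log2 units and overlapped, while the null mice lay between 7.17 and 7.90. All 4 probe sets of Herc6 were higher in each treated wild-type mouse than in any null or Clk/Clk mouse. The probe set shared by Trim30d and Trim30a, below the filter, read 6.07, 5.13 and 4.31 in treated wild type and 4.58, 4.42 and 4.41 in untreated mice.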
